A study of Mus musculus with 27 samples.

Results

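Macrophages sorted from the dura mater of mice that received T cells unable to make interferon-gamma (IFN-gamma) were compared with those of mice that received no T cells. The libraries were taken by their group labels: 2 of IFN-gamma-deficient T cells (both female) and 6 of no T cells (4 female, 2 male), together 8 of the 27 libraries of the series. All mice were B6 Rag1 ko hosts of 16 to 19 weeks, which form neither T nor B cells. The controls were labelled as steady state, and the others were studied 6.5 weeks after reconstitution with IFNg ko T cells. For reference, 5 libraries came from hosts of total B6 T cells, 2 from hosts of Tbet ko T cells and 2 from hosts of IL-17AF ko T cells, all at the same time after transfer. The knockouts are in the donor T cells, so counts in sorted macrophages cannot test them: Ifng had 0 counts in both IFN-gamma-deficient libraries and 1 count over the 6 libraries without T cells. Whether the libraries within a group are from different mice is not stated, so p-values measure only the spread between these libraries, which may be technical. One of the IFN-gamma-deficient libraries has a name that could mean pooled animals, and the names of the T-bet-deficient pair could mean 1 animal.

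Dural macrophages belong to the border-associated macrophages, which live in the membranes around the brain and carry the mannose receptor Mrc1. IFN-gamma, made by T cells and NK cells, binds its receptor on macrophages and switches on transcription factors such as Irf1 and Ciita. These in turn raise guanylate-binding proteins, T-cell attracting chemokines and the genes of antigen presentation. Rag1-deficient hosts still have NK cells, which are a source of IFN-gamma in the absence of T cells.

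Promoters of 4 genes that the results turn on are shown first, as 300 bases from 250 before to 50 after the start site (RefSeq, GRCm38.p6, 5′ to 3′ on the gene's strand). Gbp7 and Irgm1 were the members of the IFN-gamma response list that passed the test, in opposite directions. Fcgr4 differed between IFN-gamma-deficient and IL-17A/F-deficient T cells, and Cxcl13 was higher with the T cells whether or not they made IFN-gamma. Capitals mark a pair of GAAA separated by 2 bases, the shape of an interferon regulatory factor site, searched on both strands with overlaps counted.
Gbp7, chr3:142530086-142530385, + strand: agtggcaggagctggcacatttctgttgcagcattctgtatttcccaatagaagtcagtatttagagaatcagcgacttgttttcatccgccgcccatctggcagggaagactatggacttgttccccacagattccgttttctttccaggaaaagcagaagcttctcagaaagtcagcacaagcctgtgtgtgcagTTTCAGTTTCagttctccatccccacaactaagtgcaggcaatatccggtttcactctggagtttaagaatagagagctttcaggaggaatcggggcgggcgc
Irgm1, chr11:48871371-48871670, - strand: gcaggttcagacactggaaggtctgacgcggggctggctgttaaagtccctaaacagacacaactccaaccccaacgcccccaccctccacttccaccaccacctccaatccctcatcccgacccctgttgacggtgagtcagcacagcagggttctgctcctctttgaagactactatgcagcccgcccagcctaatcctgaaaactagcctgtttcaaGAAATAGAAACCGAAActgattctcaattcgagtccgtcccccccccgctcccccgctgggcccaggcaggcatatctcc
Fcgr4, chr1:171018676-171018975, + strand: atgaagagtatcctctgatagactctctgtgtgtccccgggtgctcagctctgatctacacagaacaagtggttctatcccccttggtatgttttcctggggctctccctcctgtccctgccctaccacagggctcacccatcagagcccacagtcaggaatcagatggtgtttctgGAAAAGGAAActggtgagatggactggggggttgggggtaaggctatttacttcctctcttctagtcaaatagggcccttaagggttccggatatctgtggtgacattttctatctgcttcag
Cxcl13, chr5:95956689-95956988, + strand: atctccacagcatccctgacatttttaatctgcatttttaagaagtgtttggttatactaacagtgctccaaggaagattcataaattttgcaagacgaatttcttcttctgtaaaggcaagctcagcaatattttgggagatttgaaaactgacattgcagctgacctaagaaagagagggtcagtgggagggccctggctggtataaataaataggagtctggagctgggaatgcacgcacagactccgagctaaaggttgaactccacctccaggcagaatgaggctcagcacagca
The Gbp7 window held the GAAA pair once, read on the other strand. The Irgm1 window held the GAAA pair at 2 overlapping places, the Fcgr4 window held it once, and the Cxcl13 window did not hold it. Over 32851 promoter windows of this length, the GAAA pair was found in 3.44%. Of the 30 listed IFN-gamma response genes 19 had a window, of which 12 held the GAAA pair. These matches describe the letters and not factor binding.

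The libraries differed in more than their T cells. Total counts ran from 6902602 to 10723879 with IFN-gamma-deficient T cells and from 7353139 to 17066408 without T cells. All 27 libraries were sorted by the summed CPM (counts scaled to library size) of ribosomal protein genes. Splitting at the 2 widest gaps in log2 gave 3 sets. The sorting used no TMM factors, while all CPM values printed here include them. Set A (28624 to 39990 CPM) holds 4 of the libraries without T cells (F1, F2, M1 and M2), set B (13085 to 18691) holds the other two (F3 and F4), and set C (8017 to 10280) holds both IFN-gamma-deficient libraries. Ribosomal protein RNA summed to 9441 and 9555 CPM with IFN-gamma-deficient T cells and to 14678 to 33995 CPM without T cells, a difference of -1.36 in mean log2 (two-sided exact permutation test over 28 splits, p = 0.0357, the smallest p possible). Set C also holds the IL-17A/F-deficient and T-bet-deficient pairs and no library without T cells. T-cell group and library set therefore cannot be told apart in the comparison with no T cells, while the comparisons with the other 2 knockouts lie within set C.

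**Figure D1:**
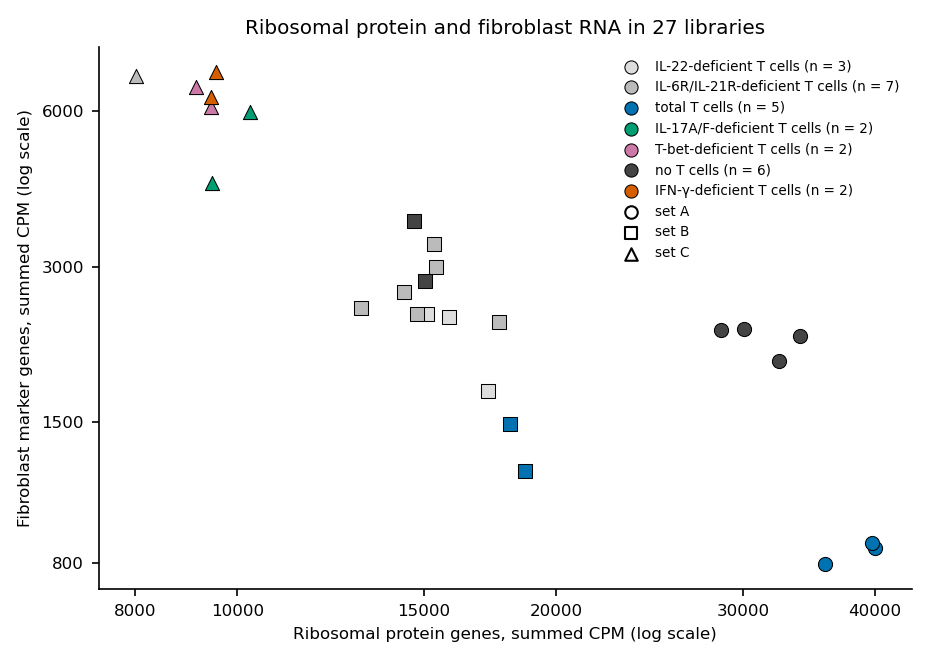
Summed CPM of ribosomal protein genes (x axis, log scale) against summed CPM of 15 fibroblast marker genes (y axis, log scale), 1 point per library, with colour for the T-cell group and shape for the set. The 2 IFN-gamma-deficient libraries sit at 9441 and 9555 on the x axis and at 6383 and 7157 on the y axis, apart from all 6 libraries without T cells.

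Stromal RNA was higher in the IFN-gamma-deficient libraries and its genes are described apart from those of macrophages. Fibroblast markers summed to 6383 and 7157 CPM, against 1974 to 3671 CPM without T cells, a difference of 1.45 in mean log2 (exact permutation test over 28 splits, p = 0.0357). Of 14 measured fibroblast markers 11 rose and none fell, where 6.82% of all tested genes rose, with a median log2 fold change of 2.25. The same median was 0.41 against IL-17A/F-deficient and 0.07 against T-bet-deficient T cells, both of set C, and -0.45 after adding the library set to the model. The collagen chain Col1a2 had 1198 and 1352 CPM with IFN-gamma-deficient T cells and 175 to 527 CPM without T cells and rose by 1.99 ± 0.48 (q = 0.0103). The matrix proteoglycan Dcn had 311 and 327 CPM with IFN-gamma-deficient T cells and 38.5 to 106 CPM without T cells and rose by 2.35 ± 0.45 (q = 0.00357). In both genes each IFN-gamma-deficient library lay above each library without T cells. The growth factor receptor Pdgfra, a defining fibroblast marker, rose by 3.42 ± 0.62 (q = 0.00268). In all, 403 tested genes were set apart. They were markers of the stromal cell types or followed the fibroblast markers over libraries of other groups (Pearson r of at least 0.7, as deviations from group means). Of these 403 genes 216 rose and 1 fell in the fit described next. Of the libraries used for that correlation, the set C library of IL-6Ra and IL-21R-deficient T cells stood apart. Its fibroblast markers summed to 7030 CPM, against 2342 to 3318 CPM in the rest of its group. How much the choice of genes rests on that library is not given here. The part that stromal RNA has in other results was not tested beyond the fits given below.

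The 2 IFN-gamma-deficient libraries also differed from each other in vessel-wall RNA. The pericyte marker Rgs5 had 250.3 CPM in F1 and 5.5 CPM in F2, against 8.1 to 20.6 CPM without T cells. Notch3, a receptor of the same cells, had 80.8 and 23.8 CPM. Summed pericyte and smooth muscle markers were 845 and 141 CPM, against 62.6 to 519.8 CPM without T cells, and summed endothelial markers were 210.3 and 83.8 CPM, against 44.6 to 288 CPM.

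Across 12661 tested genes, 863 were called higher with IFN-gamma-deficient T cells than without T cells and 866 lower (edgeR quasi-likelihood test, Benjamini-Hochberg q under 0.05), which is 6.82% and 6.84% of the genes. The median log2 fold change of all genes was -0.06. These calls rest on library F1 and on the reading of the sets. IFN-gamma-deficient library F1 had the lowest total (6902602 counts) and the fewest genes detected (13225, against 15577 in F2) of the 27 libraries. The part of this depth in the calls was not tested. Without IFN-gamma-deficient library F1 1 gene was called, Slc16a9, and without F2 813 were higher and 1295 lower. In such a fit the lone library is assumed to vary like the others. Against the 2 set B libraries without T cells, which lie nearer in ribosomal protein RNA, 121 genes were higher and 95 lower (0.956% and 0.75%), and of the 216, 198 were among the 1729. Both fits share these 2 libraries and the IFN-gamma-deficient pair, so that overlap is not separate support. No gene was called once the model also had a term for the library set, the fibroblast score or the ribosomal protein sum. The set term rests on 1 library of IL-6Ra and IL-21R-deficient T cells, the 1 library of a group that spans set C and another set. The same library had by far the most fibroblast RNA of its group, and its part in the fibroblast term was not tested.

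Most genes of the IFN-gamma response were not called with T cells that lacked IFN-gamma. Of 27 measured members 1 rose and 1 fell, where 6.82% and 6.84% of all genes did, with a median log2 fold change of -0.16. With total T cells against no T cells, which shares the control libraries, 20 of the 27 rose (11.7% of all genes), with a median of 1.48. The direct test of IFN-gamma-deficient against total T cells called 19 of 27 lower, where 19.5% of all genes were called lower and 17.4% higher, with a median of -1.78.

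Gbp2, a GTPase that attacks microbes inside cells (chromosome 3, 142620602 to 142638008, + strand), had 106 and 82.9 CPM with IFN-gamma-deficient T cells, against 54.4 to 174 CPM (median 84.4) without T cells. The groups overlapped, and the log2 fold change was -0.05 ± 0.50 (q = 0.961). With total T cells Gbp2 had 282 to 1677 CPM. Its relative Gbp4 had 3.57 and 3.19 CPM with IFN-gamma-deficient T cells, against 3.77 to 16.1 CPM (median 7.88) without T cells. Both IFN-gamma-deficient libraries lay below all 6 without T cells, yet the fold change of -1.39 ± 0.65 (q = 0.153) did not pass the test. Cxcl9, a chemokine that draws T cells, had 2.47 and 22.4 CPM with IFN-gamma-deficient T cells, against 17.2 to 142 CPM (median 29.2) without T cells. Its fold change was -1.93 ± 0.98 (q = 0.191), and ran from -1.09 without library F2 of no T cells to -4.30 without IFN-gamma-deficient library F2.

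Transcription factors of the response did not differ beyond their spread. Irf1 had 622 and 556 CPM with IFN-gamma-deficient T cells, against 398 to 906 CPM (median 616) without T cells, with a fold change of 0.01 ± 0.31 (q = 0.99), and was not separated from total T cells either (315 to 713 CPM, 0.12 ± 0.31 (q = 0.792)). Ciita, the master regulator of MHC class II, had 118 and 107 CPM with IFN-gamma-deficient T cells, against 91.1 to 159.9 CPM (median 132) without T cells, with a fold change of -0.12 ± 0.35 (q = 0.846). The checkpoint ligand Cd274 gave 0.51 ± 0.50 (q = 0.53). Nos2, which makes nitric oxide, had 10.8 CPM in library F1 and 0 in F2, and 0.0599 and 7.63 CPM in libraries F1 and F2 without T cells and 0 in the other 4, so 1 library in each group carries it.

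The called members were Gbp7 and Irgm1. Gbp7, another guanylate-binding protein (chromosome 3, 142530342 to 142550149, + strand), had 164 and 131 CPM with IFN-gamma-deficient T cells, against 74.8 to 119.9 CPM (median 91.9) without T cells. It rose by 0.66 ± 0.22 (q = 0.0471) with no overlap, and stayed positive in each refit with a term (0.97 with the set, 0.92 with the fibroblast score), though no longer called. Against the same controls Gbp7 also rose with T-bet-deficient (0.74, q = 0.0406), IL-17A/F-deficient (1.21, q = 0.00511) and total T cells (0.90, q = 0.000482). IFN-gamma-deficient and total T cells did not differ in it beyond their spread (-0.24 ± 0.23, q = 0.438). Irgm1, an immunity-related GTPase (chromosome 11, 48861968 to 48871683, - strand), had 89.9 and 66.8 CPM with IFN-gamma-deficient T cells, against 122 to 189.9 CPM (median 143) without T cells. It fell by 0.91 ± 0.30 (q = 0.0427) on the log2 scale, and its sign changed with the set term (0.41). Both values are close to the q threshold. No member of the list was called without library F1, M1 or M2 of no T cells. The calls also rest on both IFN-gamma-deficient libraries. Leaving out 1 of the 8 libraries at a time, the fold change of Gbp7 ran from 0.49 to 0.82 and that of Irgm1 from -1.14 to -0.71.

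Some antigen presentation genes fell and none rose. Of 20 measured MHC class I genes 3 fell (median -0.48), and of 12 MHC class II genes 2 fell (median -0.68), where 6.84% of all genes fell. In 13 of the 20 and 9 of the 12 both IFN-gamma-deficient libraries lay below all 6 libraries without T cells, which was so for 13.7% of all genes, and 14% lay above. The set term turned both medians positive (0.37 and 0.70), with no gene called.

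H2-Ab1, a chain of the MHC class II molecule, had 5027 and 5893 CPM with IFN-gamma-deficient T cells, against 8671 to 10398 CPM (median 9109) without T cells. Its partner H2-Aa had 5047 and 5899 CPM with IFN-gamma-deficient T cells and 7698 to 9745 CPM without T cells. Neither passed the test (-0.80 ± 0.30 (q = 0.0756) and -0.70 ± 0.31 (q = 0.124)). Those that fell were H2-DMa, a chain of the peptide-loading chaperone, with a fold change of -0.84 ± 0.26 (q = 0.0375), and H2-DMb2, with -2.92 ± 0.58 (q = 0.00413). H2-DMb2 had 1.24 and 3.01 CPM with IFN-gamma-deficient T cells and 14.1 to 24 CPM without T cells, and it was also called against set B alone. Among class I genes the class I heavy chain H2-K1 had 1392 and 1710.0 CPM with IFN-gamma-deficient T cells, against 1890.4 to 2405 CPM (median 2178) without T cells, a fold change of -0.48 ± 0.20 (q = 0.107). The peptide transporter Tap1 gave -0.68 ± 0.28 (q = 0.101) and the immunoproteasome subunit Psmb8 -0.73 ± 0.25 (q = 0.0562), both without overlap and neither called. The immunoproteasome subunit Psmb9 (-0.73 ± 0.25, q = 0.0497), the proteasome activator Psme2 (-1.70 ± 0.54, q = 0.0393) and the non-classical class I gene H2-T23 (-0.61 ± 0.19, q = 0.0375) fell. Psme2 was itself uneven without T cells, with 49.9 and 68.2 CPM in set B and 97.4 to 152 CPM in set A.

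Within set C, where ribosomal protein RNA was alike, the same 58 genes, those of the IFN-gamma response joined with the MHC class I and II lists, were lower with IFN-gamma-deficient than with IL-17A/F-deficient T cells in 54 of 58 point estimates. Their median log2 fold change was -0.87, against -0.02 over all genes, of which 51.9% were negative. In 51 of the 58 both IFN-gamma-deficient libraries lay below both IL-17A/F-deficient libraries, against 20.5% of all genes. At an unadjusted p under 0.05, 37 of the 58 were lower, against 4.22% of all genes. RNA of other cells was not alike in this comparison. Fibroblast markers summed to 6383 and 7157 CPM with IFN-gamma-deficient and to 4350 and 5976 CPM with IL-17A/F-deficient T cells, without overlap. Of 17 monocyte-derived cell genes 16 were negative (median -0.92), and all 8 pericyte and smooth muscle genes were positive (median 1.58), with none called in either list. Their part in the result was not tested. None of the 58 passed q under 0.05 in edgeR with 2 libraries against 2, 9 did in the DESeq2 Wald test and 32 were called lower without the filter on low counts. The 37 became 23 without IFN-gamma-deficient library F1, 30 without F2, and 36 and 21 without IL-17A/F-deficient libraries F1 and F2. The comparison with no T cells gave 44 of the 58 negative, and the set term gave 55 positive, with none called.

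Cxcl9 had 2.47 and 22.4 CPM with IFN-gamma-deficient and 79.2 and 344 CPM with IL-17A/F-deficient T cells, a log2 fold change of -4.04 ± 1.17 (unadjusted p = 0.00208, q = 0.537). Gbp4 had 3.57 and 3.19 CPM against 29.7 and 45.7 CPM, a fold change of -3.48 ± 0.75 (q = 0.253). The groups did not overlap in either gene. H2-K1 gave -1.07 ± 0.24 (q = 0.253) and Tap1 -1.21 ± 0.33 (q = 0.43). Irf1 (0.24 ± 0.37), Icam1 (0.31 ± 0.34), Batf2 (0.23 ± 0.44) and Nos2 (2.89 ± 2.56), none of them called, were the 4 with a positive value.

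In that comparison 2 genes were called lower and 0 higher (edgeR, 776 genes at an unadjusted p under 0.05; DESeq2 called 7 higher and 19 lower). Fcgr4, an activating receptor for antibody Fc parts (chromosome 1, 171018920 to 171029761, + strand), had 78.2 and 89.7 CPM with IFN-gamma-deficient and 252 and 397 CPM with IL-17A/F-deficient T cells, and fell by 1.95 ± 0.31 (q = 0.017). No gene was called without IFN-gamma-deficient library F1 or without IL-17A/F-deficient library F2, so the call rests on both. Without T cells it had 111 to 161 CPM, all above both IFN-gamma-deficient libraries, a difference of -0.71 ± 0.26 (q = 0.0661). With total T cells it had 354 to 577 CPM. The other was Nmrk1, a kinase of the NAD salvage pathway, with 3 counts over both IFN-gamma-deficient libraries. Its CPM was 23.2 times higher with IL-17A/F-deficient T cells (95% exact interval 7.67 to 115, counting error only) and 16.2 times higher without T cells (5.45 to 79.0). Nmrk1 lay between 1.27 and 4.63 CPM in the 6 libraries without T cells.

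T cells without T-bet, the transcription factor that drives IFN-gamma production in T cells, were the other comparison within set C. Of the 58 genes 54 were lower in point estimate, with a median of -0.42 (-0.02 over all genes), and 5 were lower at an unadjusted p under 0.05, against 2.1% of all genes. In 45 of the 58 both IFN-gamma-deficient libraries lay below both T-bet-deficient libraries, against 18.5% of all genes. Over all 12661 genes none was called (442 at an unadjusted p under 0.05, none by DESeq2), and the difference between the 2 contrasts was not tested. Gbp4 had 13.8 and 9.47 CPM with T-bet-deficient T cells (-1.78 ± 0.73, unadjusted p = 0.0226), and H2-K1 2381 and 2181 CPM (-0.56 ± 0.23, unadjusted p = 0.0255).

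**Figure D2:**
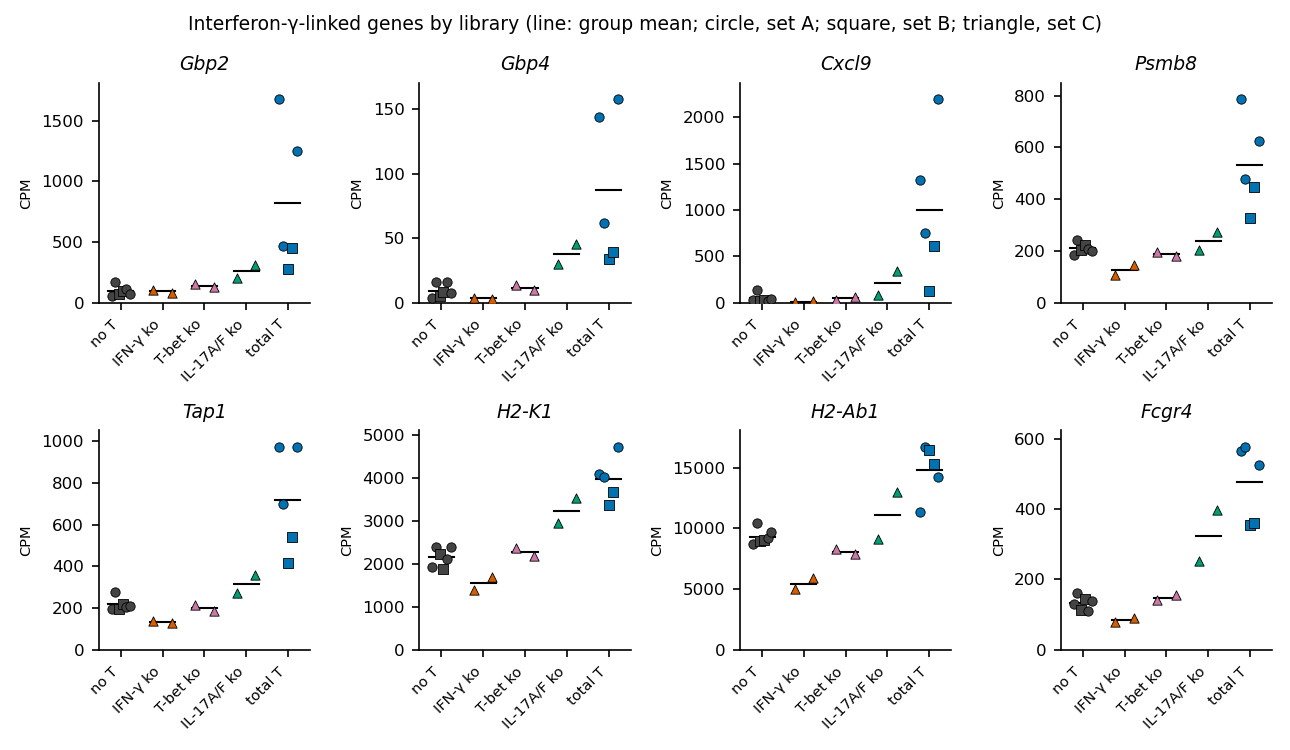
CPM (y axis, from 0) of 8 IFN-gamma-linked genes in each library of 5 groups (x axis: no T cells, then hosts of IFN-gamma-, T-bet- and IL-17A/F-deficient and of total T cells); the line is the group mean and the shape gives the set. The IFN-gamma-deficient pair lies below all 6 libraries without T cells for Gbp4, Psmb8, Tap1, H2-K1, H2-Ab1 and Fcgr4.

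A few type I interferon response genes, many of which IFN-gamma can also raise, fell. Of 25 measured members 5 fell and none rose, with a median of -0.51, and 12 lay below all libraries without T cells, where 6.84% of all genes fell and 13.7% lay below. Ifi27l2a had 82.2 and 74.4 CPM with IFN-gamma-deficient T cells, against 156 to 224 CPM (median 194) without T cells. It fell by 1.37 ± 0.25 (q = 0.0029) and was called against set B alone. Its value was -1.17 with the set term and -1.32 with the fibroblast score, called in neither. The list median was -0.04 with the set term and -0.28 with the fibroblast score, with no member called. The antiviral sensors and effectors Oas1a (-1.07 ± 0.24, q = 0.00688), Rtp4 (-1.09 ± 0.30, q = 0.0228), Zbp1 (-1.0 ± 0.32, q = 0.0421) and Xaf1 (-0.84 ± 0.24, q = 0.0242) fell too. Within set C the median of the list was -0.32 against IL-17A/F-deficient and 0.01 against T-bet-deficient T cells.

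Some genes typical of monocyte-derived cells fell with IFN-gamma-deficient T cells. Of 17 measured members 4 fell and none rose (median -1.57), and in 11 the groups did not overlap, all lower. Over all genes 6.84% fell and 13.7% lay below without overlap. Ccr2, the receptor that brings monocytes out of the blood (chromosome 9, 124101950 to 124113557, + strand), had 222 and 213 CPM with IFN-gamma-deficient T cells, against 467 to 795 CPM (median 637) without T cells. It fell by 1.61 ± 0.32 (q = 0.00417), and the value was -1.51 against set B alone and 0.08 with the set term. Napsa, an aspartic protease, had 1.1 and 2.66 CPM with IFN-gamma-deficient T cells, against 24.3 to 51.5 CPM (median 30.8) without T cells, and fell by 4.05 ± 0.89 (q = 0.0066). The calcium-binding protein S100a4 had 17.8 and 18.6 CPM with IFN-gamma-deficient T cells, against 58.2 to 131 CPM (median 98.2) without T cells, and fell by 2.51 ± 0.54 (q = 0.00633). These 3 genes were also called against set B alone. Klra2 fell by 1.14 ± 0.37 (q = 0.0412).

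Other monocyte genes were not called. Plac8 had 9.61 and 3.01 CPM with IFN-gamma-deficient T cells, against 38.9 to 137 CPM (median 66) without T cells (-3.62 ± 1.51, q = 0.107), and the monocyte surface marker Ly6c2 had 0.275 and 2.3 CPM with IFN-gamma-deficient T cells and 23.9 to 68 CPM without T cells (-4.87 ± 1.72, q = 0.0598). The integrin Itgal gave -0.54 ± 0.44 (q = 0.425) with overlapping groups. With total T cells 16 of the 17 rose against no T cells (median 2.76), where 11.7% of all genes rose and 9.39% fell. Ccr2 had 1009.6 to 1799 CPM with total T cells. The other pairs of set C were low as well: Ccr2 had 271 and 321 CPM with IL-17A/F-deficient and 338 and 256 CPM with T-bet-deficient T cells. Against these pairs the list median was -0.92 and 0.17, and with the set term it was 0.34. All 6 of these set C libraries were below every library without T cells in Ccr2, and the part of the set in that value cannot be told apart. In bulk RNA of sorted cells, fewer cells of a type and less RNA per cell cannot be told apart.

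Of 11 dendritic cell markers 2 fell and none rose, where 6.84% of all genes fell. Batf3, a transcription factor of cross-presenting dendritic cells, had 3.71 and 5.58 CPM with IFN-gamma-deficient T cells and 13.8 to 22.9 CPM without T cells and fell by 2.13 ± 0.45 (q = 0.00556). The surface peptidase Dpp4 had 0 and 3.19 CPM with IFN-gamma-deficient T cells and 8.57 to 20.7 CPM without T cells and fell by 3.16 ± 0.88 (q = 0.0226). The integrin Itgax, a dendritic cell and activated macrophage marker of the complement and integrin lists, had 20.9 and 18.5 CPM with IFN-gamma-deficient T cells, against 57 to 97.5 CPM (median 64.7) without T cells, and fell by 1.71 ± 0.54 (q = 0.0377). Summed dendritic cell markers were 114.6 and 86.8 CPM with IFN-gamma-deficient T cells and 142.2 to 218 CPM without T cells.

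Most defining markers of T and NK cells were at 0 with IFN-gamma-deficient T cells. Of 15 T-cell markers 11 had no count in either library, among them Cd3d, Cd3e, Cd3g and Trac. The T-cell list summed to 171 and 180.5 CPM, of which Cd4, which macrophages also express, made 161 and 172.2 CPM. Of 9 NK cell markers 6 had no count, and the list summed to 5.67 to 7.55 CPM, against 8.42 to 22.8 CPM without T cells. Neutrophil markers summed to 593 to 619 CPM, against 354 to 2935 CPM without T cells. That sum does not stand for the list. Of 13 markers 5 had no count in either IFN-gamma-deficient library. Of the 10 tested 9 were negative in point estimate and 1 positive (median -6.18), where 54% of all genes were negative. The neutrophil granule genes Camp, Ngp and S100a9 were called lower, but rest on some libraries without T cells. Camp had 0 counts in both IFN-gamma-deficient libraries, and 0 to 195.6 CPM without T cells, with the highest value in M1 and 0 in F3. The ratio of S100a9 without to with T cells was 967 (95% exact interval 268 to 7989.9, 2 counts over the IFN-gamma-deficient pair, counting error only). Cd177, a neutrophil surface protein chosen among the largest changes, also had 2 counts there and a ratio of 97.9 (27 to 809.6). The NK cell receptor Klrd1 had 0 counts in both IFN-gamma-deficient libraries and 0.386 to 3.16 CPM in the 6 without T cells.

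Most genes of resident border macrophages passed the test in neither direction. Of 24 measured members 3 rose and none fell (median 0.13), and in 8 both IFN-gamma-deficient libraries lay above all libraries without T cells, in 1 below. Over all genes 6.82% rose, 14% lay above and 13.7% lay below. Whether the counts of this list exceed those shares was not tested. Cd163, the scavenger receptor for haemoglobin, had 2793 and 1469 CPM with IFN-gamma-deficient T cells, against 525 to 909 CPM (median 839) without T cells, and rose by 1.44 ± 0.46 (q = 0.0411). Siglec1, a sialic acid binding lectin, had 1479 and 1085 CPM with IFN-gamma-deficient T cells, against 488 to 685 CPM (median 624) without T cells, and rose by 1.05 ± 0.29 (q = 0.022). In both, library F1 was the higher of the pair, and without F1 the fold changes were 0.91 and 0.81. With the set term both changed sign (-0.31 and -0.04), and the list median was -0.16. Mertk, a receptor for the uptake of dying cells, rose by 0.72 ± 0.23 (q = 0.0418) with overlapping groups.

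The mannose receptor Mrc1 had 5335 and 5143 CPM with IFN-gamma-deficient T cells, against 2308 to 3507 CPM (median 2858) without T cells. Although the groups did not overlap, its fold change of 0.81 ± 0.35 (q = 0.118) did not pass the test. Cbr2 (-0.16 ± 0.38, q = 0.811), Pf4 (-0.52 ± 0.41, q = 0.416) and Lyve1 (-0.17 ± 0.63, q = 0.889), other genes of resident cells, overlapped between the groups. Csf1r, the growth factor receptor that all macrophages need, had 5297 and 5744 CPM with IFN-gamma-deficient T cells and 4209.5 to 4830.4 CPM without T cells (0.23 ± 0.14, q = 0.27). Against total T cells 21 of the 24 were called higher with IFN-gamma-deficient T cells (median 1.67), where 17.4% of all genes were, and Mrc1 had 509 to 2650.5 CPM with total T cells. Against IL-17A/F- and T-bet-deficient T cells the medians were 0.32 and -0.02.

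**Figure D3:**
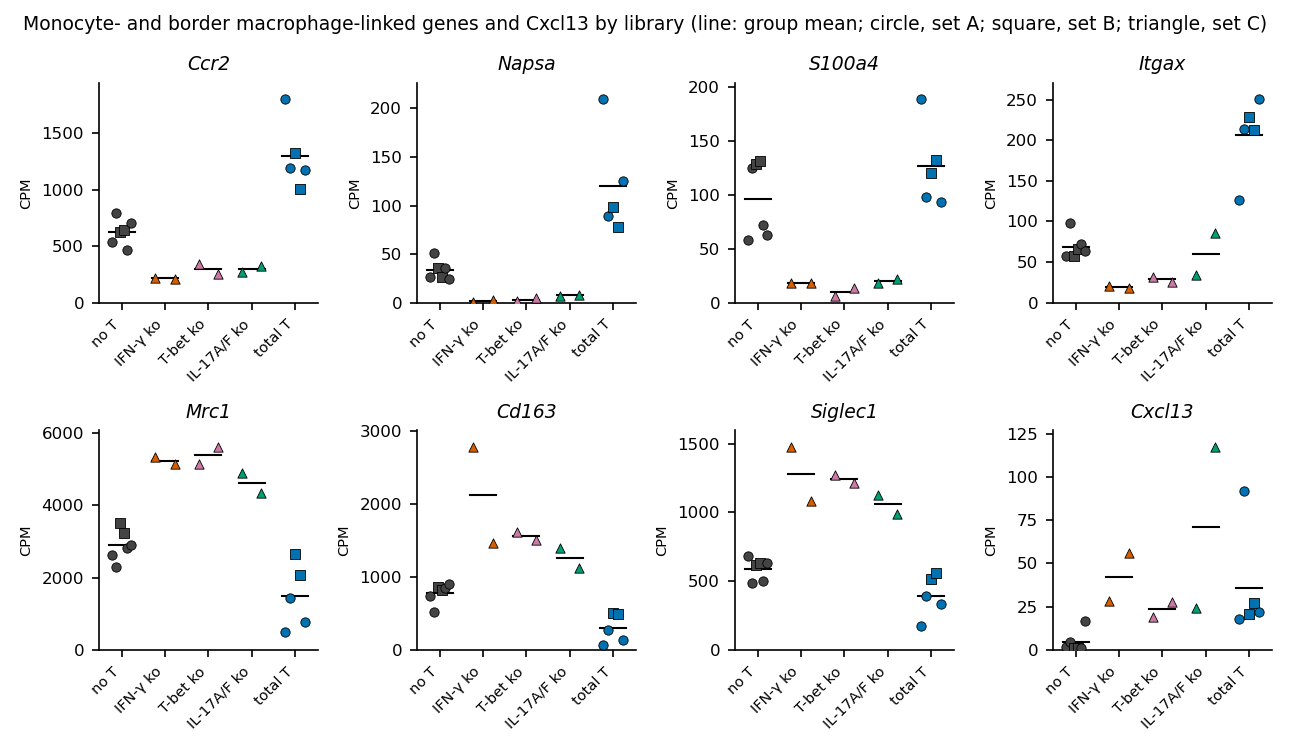
CPM (y axis, from 0) of 4 monocyte- or dendritic-cell-linked genes, 3 border macrophage genes and Cxcl13 in each library of 5 groups (x axis), with the group mean as a line and the set as the shape. Ccr2 at 222 and 213 CPM lies below the lowest library without T cells (467), and Cxcl13 at 28.5 and 56.1 CPM lies above the highest (16.8).

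Cxcl13, a chemokine that draws B cells and follicular T cells (chromosome 5, 95956951 to 95961068, + strand), was higher with T cells also where they lacked IFN-gamma. It had 28.5 and 56.1 CPM with IFN-gamma-deficient T cells, against 1.21 to 16.8 CPM (median 1.44) without T cells. It rose by 3.52 ± 0.80 (q = 0.00801). The rise was as large with the set term (4.58), with the fibroblast score (4.05) and against set B alone (5.06, called). The highest library without T cells, M2, stood apart from the other 5, which had at most 4.42 CPM. Cxcl13 had 17.9 to 91.8 CPM with total T cells, 24.4 and 118 CPM with IL-17A/F-deficient and 19 and 27.8 CPM with T-bet-deficient T cells. Against total T cells the difference was 0.30 ± 0.80 (q = 0.796), so IFN-gamma-deficient and total T cells did not differ beyond their spread.

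The other large increases outside the genes set apart were 11 protein-coding genes besides Cxcl13. Falling outside that cut does not make them macrophage genes, and the part of stromal RNA in them was not tested. The first were Moxd1 (5.30 ± 1.53, q = 0.0259), Svep1 (4.77 ± 0.90, q = 0.00323), Shroom2 (4.22 ± 1.22, q = 0.0263), Col6a5 (4.11 ± 0.95, q = 0.00867), Cacng7 (3.97 ± 1.11, q = 0.0223) and Slit3 (3.89 ± 0.91, q = 0.00943). The remaining ones were Cacna1c (3.72 ± 1.11, q = 0.0307), Igsf10 (3.55 ± 1.00, q = 0.0239), Wfikkn2 (3.54 ± 1.11, q = 0.0367), Angptl4 (3.46 ± 0.53, q = 0.00177) and Setbp1 (3.45 ± 1.03, q = 0.0305). Col6a5, a chain of collagen VI, had 206 and 134 CPM with IFN-gamma-deficient T cells and 2.25 to 18.6 CPM without T cells, and its fold change was 0.56 with the fibroblast score and -0.33 with the set term. Angptl4, a secreted inhibitor of lipoprotein lipase, had 51.7 and 14.1 CPM with IFN-gamma-deficient T cells, against 1.21 to 6.88 CPM (median 2.97) without T cells. It was the 1 other gene of these that was called against set B alone (3.80), and it was 2.61 with the fibroblast score. Moxd1, Shroom2, Cacng7, Wfikkn2 and Angptl4 were at least 3 times higher in library F1 than in F2. Summed pericyte and smooth muscle markers were also higher in F1 (845 and 141 CPM), and a link was not tested. Slc16a9, a solute carrier named because it alone was called without F1, had 13.9 and 32.2 CPM with IFN-gamma-deficient T cells, against 2.51 to 8.98 CPM (median 5.98) without T cells, and rose by 1.78 ± 0.32 (q = 0.00268).

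Several of the largest decreases followed the sets within the libraries without T cells. Actg1, a cytoplasmic actin, had 405 to 462 CPM in the 4 set A libraries without T cells, 18.7 and 5.62 CPM in the 2 of set B, and 1.65 and 1.77 CPM with IFN-gamma-deficient T cells (-7.23 ± 1.83, q = 0.0135). Fau, which encodes a ribosomal protein, fell by 5.16 ± 1.58 (q = 0.0336), with 546 to 702 CPM in set A, 16.1 and 13.5 CPM in set B and 12.9 and 7.71 CPM with IFN-gamma-deficient T cells. Trmt112 (-4.94 ± 1.37, q = 0.0216), Hnrnpa1 (-3.96 ± 1.19, q = 0.0307), the glycolytic enzyme Gapdh (-2.92 ± 0.98, q = 0.0494) and the ferritin light chain Ftl1 (-1.61 ± 0.51, q = 0.0398) had the same pattern. Against set B alone the values were -2.79 for Actg1, -2.23 for Trmt112, -0.50 for Fau, -0.91 for Hnrnpa1, -0.40 for Gapdh and -0.30 for Ftl1, none called. Several of these genes have near-identical copies elsewhere in the genome, no source used here says how reads with several matches were counted, and their values are uncertain. Among all called genes, 10.7% of those lower and 1.62% of those higher were lower by at least 1 in log2 in set B than in set A without T cells, against 4.87% of all tested genes.

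Other large decreases follow. All 12 named were chosen for no overlap, so lying below the libraries without T cells of both sets is not a result. Cd300lg, a surface receptor, had 1.37 and 1.15 CPM with IFN-gamma-deficient T cells, against 11.4 to 17.8 CPM (median 12.8) without T cells, and fell by 3.52 ± 0.66 (q = 0.00323). Ung, which removes uracil from DNA, had 0 and 1.15 CPM with IFN-gamma-deficient T cells, against 2.19 to 14.2 CPM (median 7.66) without T cells, and fell by 3.66 ± 0.77 (q = 0.00556). Both were called against set B alone (-3.49 and -4.20) and stayed negative with the set term (-1.98 and -3.45). Ear2, a ribonuclease of the alternative activation list (-3.60 ± 0.97, q = 0.0185), and the cytochrome P450 Cyp2s1 (-4.69 ± 1.36, q = 0.0271) fell as well. So did the protease inhibitor Spint2 (-3.46 ± 1.01, q = 0.0271) and the signal-regulatory protein Sirpb1c (-3.35 ± 0.87, q = 0.0157). These 4 were not called against set B alone (-3.61, -4.13, -2.21 and -3.42), and Ear2 changed sign with the set term (0.73).

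Of 30 cell cycle genes 8 fell and none rose, with a median of -0.98, where 6.84% of all genes fell. Without IFN-gamma-deficient library F1 the median was -0.63 with 0 called, and without F2 it was -1.70 with 14 called lower. The median was -1.13 with the set term and -0.94 with the fibroblast score, with no gene called in either. Cyclin Ccnb2 had 1.78 and 5.67 CPM with IFN-gamma-deficient T cells, against 7.59 to 24.5 CPM (median 13.9) without T cells, and fell by 2.23 ± 0.65 (q = 0.0271). Cyclin Ccna2 had 3.71 and 7.62 CPM with IFN-gamma-deficient T cells, against 6.82 to 19 CPM (median 17) without T cells, and fell by 1.65 ± 0.42 (q = 0.0142). The mitotic kinase Aurka fell by 1.64 ± 0.50 (q = 0.0332). The proliferation marker Mki67 went the other way in point estimate, with 11.3 and 40.6 CPM with IFN-gamma-deficient T cells and 5.49 to 18.5 CPM without T cells (1.17 ± 0.70, q = 0.271). Against IL-17A/F- and T-bet-deficient T cells the list medians were -0.34 and 0.27.

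Of 22 nuclear-encoded genes of the respiratory chain 10 fell and none rose (median -0.51), where 6.84% of all genes fell. The ATP synthase subunit Atp5e had 50.2 and 64.3 CPM with IFN-gamma-deficient T cells, against 83.8 to 133 CPM (median 122) without T cells, and fell by 1.03 ± 0.22 (q = 0.00625). The complex I subunit Ndufa6 fell by 0.88 ± 0.21 (q = 0.0093), and both were called against set B alone. The ATP synthase subunit Atp5l fell by 0.94 ± 0.29 (q = 0.0339). Within set C the median was -0.18 against IL-17A/F-deficient and -0.05 against T-bet-deficient T cells, and with the set term it was 0.03.

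Of 17 lipid handling genes 3 rose and 1 fell, where 6.82% of all genes rose and 6.84% fell. Abca1, the pump that exports cholesterol, had 1156 and 877 CPM with IFN-gamma-deficient T cells, against 342 to 522 CPM (median 444) without T cells, and rose by 1.32 ± 0.21 (q = 0.00262). Npc1, which moves cholesterol out of lysosomes, had 219 and 226 CPM with IFN-gamma-deficient T cells, against 115 to 185 CPM (median 134) without T cells, and rose by 0.76 ± 0.16 (q = 0.00541). Both were called against set B alone (1.33 and 0.79). The lipid droplet protein Plin2 rose by 0.66 ± 0.22 (q = 0.0497), which was 0.09 without library F1, and Npc2, the partner of Npc1, fell by 0.44 ± 0.14 (q = 0.0461). Within set C the list median was 0.07 against IL-17A/F-deficient and 0.06 against T-bet-deficient T cells, with none called. With the set term it was 0.62, with none called. Those 2 knockouts each had 2 of the 17 called higher against no T cells, where 3.69% and 4.19% of all genes were. Of 21 lysosome genes the hydrolases Gaa (0.68 ± 0.17, q = 0.0135) and Gla (0.75 ± 0.22, q = 0.0307) rose and the proton pump subunit Atp6v0c (-0.79 ± 0.20, q = 0.0144) fell, near the shares over all genes. No gene of cholesterol synthesis was called among 19.

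Of 19 receptors for T-cell cytokines 2 rose and 1 fell, near the 6.82% and 6.84% of all genes. Il6st, the signalling chain shared by receptors of the interleukin-6 family, had 306 and 276 CPM with IFN-gamma-deficient T cells, against 105 to 140.4 CPM (median 112) without T cells. It rose by 1.37 ± 0.24 (q = 0.00268), with no overlap. The interleukin-4 receptor chain Il4ra had 614 and 631 CPM with IFN-gamma-deficient T cells, against 293 to 521 CPM (median 371) without T cells, and rose by 0.66 ± 0.20 (q = 0.0322). Its set B values without T cells (521 and 487 CPM) were nearer, and it changed sign with the set term (-0.29). Il27ra, at 2.43 to 5.65 CPM without T cells, fell by 2.84 ± 0.85 (q = 0.0309). Of the alternative activation list, Arg1 was called higher (5.67 ± 1.67, q = 0.0304) on library F1 alone, which had 71.0 CPM against 0 in F2, and 0 to 3.9 CPM without T cells.

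The lists of inflammation, growth and uptake held few changes, where 6.82% of all genes rose and 6.84% fell. Of 18 interleukin-17 and NF-kB targets 1 rose and 2 fell, and of 22 early-response and stress genes 2 fell and none rose. Of 14 TGF-beta pathway genes 2 rose and none fell, and of 15 genes of uptake of dead cells 2 rose and none fell. The other lists named here had at most 1 in each direction. The NF-kB inhibitors Tnfaip3 and Nfkbia moved in opposite directions, with fold changes of 0.81 ± 0.17 (q = 0.00604) and -0.67 ± 0.15 (q = 0.00816). Tnfaip3 had 1345 and 1266 CPM with IFN-gamma-deficient T cells and 565 to 904 CPM without T cells, and Nfkbia had 957 and 833 CPM with IFN-gamma-deficient T cells and 1218 to 1558 CPM without T cells. The early-response genes Ier2 (-1.23 ± 0.25, q = 0.00496) and Klf6 (-0.61 ± 0.15, q = 0.011), which tissue digestion can induce, fell. The complement component C4b rose by 1.29 ± 0.32 (q = 0.0126), with 1455 and 1265 CPM with IFN-gamma-deficient T cells and 469 to 780.1 CPM without T cells. The glycolysis regulator Pfkfb3 rose by 0.93 ± 0.20 (q = 0.00562), and stayed as large with the set term (1.27). Tgfb3 (1.33 ± 0.25, q = 0.00334) rose among TGF-beta pathway genes, the RNA sensor Tlr8 (0.74 ± 0.23, q = 0.037) among Toll-like receptors and Olfml3 (0.63 ± 0.20, q = 0.0361) among microglia genes. Spi1, which encodes a macrophage transcription factor (-0.50 ± 0.13, q = 0.0135), and the Fc receptor gamma chain Fcer1g (-0.56 ± 0.16, q = 0.0258) fell. With the set term C4b, Tlr8 and Fcer1g changed sign.

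Some called list members belong to the genes set apart as stromal and are given here for completeness. The chemokine Cxcl12 had 184 and 202 CPM with IFN-gamma-deficient T cells and 33.5 to 52.8 CPM without T cells (2.22 ± 0.40, q = 0.00268), and the growth factor Csf1 had 40.8 and 42.5 CPM with IFN-gamma-deficient T cells and 8.42 to 16.6 CPM without T cells (1.88 ± 0.39, q = 0.00496). The endocytic receptor Lrp1 (1.81 ± 0.43, q = 0.0095) and the TGF-beta co-receptor Tgfbr3 (2.71 ± 0.54, q = 0.00424) rose as well. With the fibroblast score as a term the 4 values were 0.59, 0.67, 0.30 and 1.17.

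**Figure D4:**
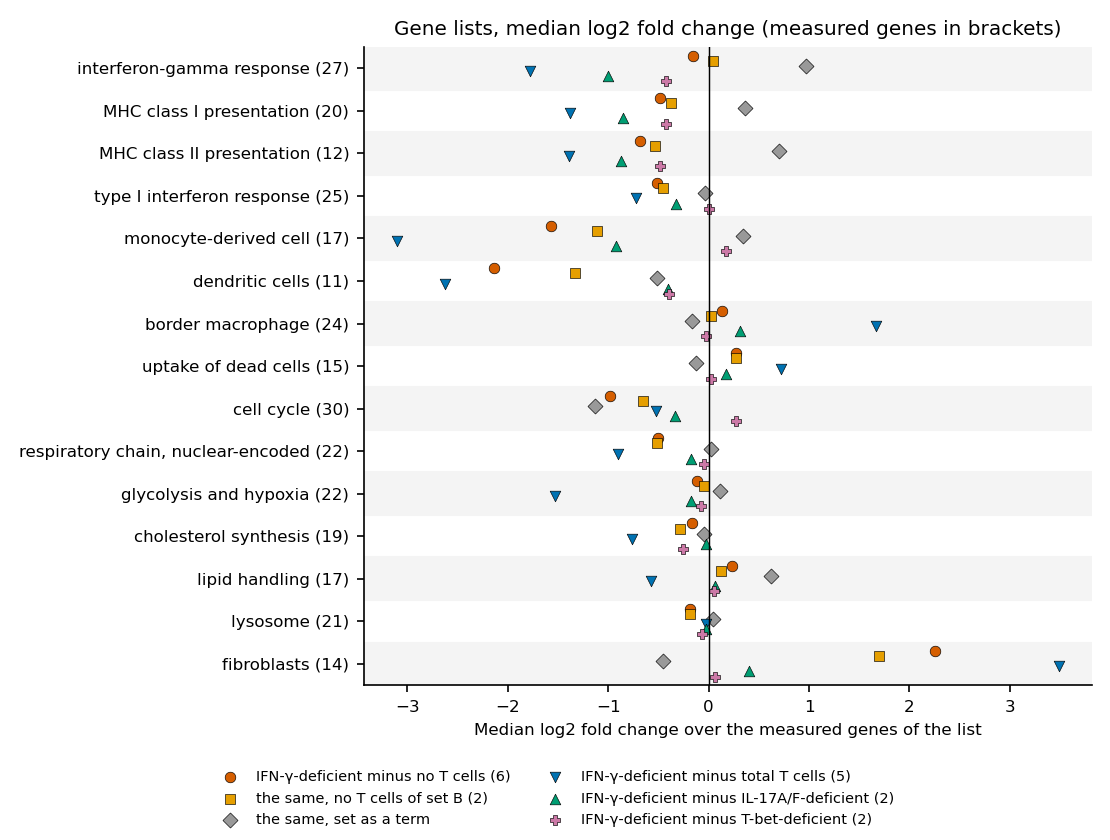
Median log2 fold change (x axis) over the measured genes of 15 lists (y axis, number measured in brackets) for IFN-gamma-deficient T cells against no T cells, its refits with set B controls and with a set term, and against total, IL-17A/F-deficient and T-bet-deficient T cells. The IFN-gamma response lies at -0.16 against no T cells and at -1.78 against total T cells, and the set term moves it to 0.97.

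Of the 80 named genes called in the comparison with no T cells, all 80 kept their direction against the 2 set B libraries and 17 were called there, while 57 kept it with the set as a term, with none called. The 17 were Ccr2, Napsa, S100a4, Cd300lg, Ung, H2-DMb2, Ifi27l2a, Ier2, Atp5e, Ndufa6 and Nmrk1, which were lower, and Cxcl13, Angptl4, Abca1, Npc1, Tgfbr3 and Slc16a9, which were higher.

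**Figure D5:**
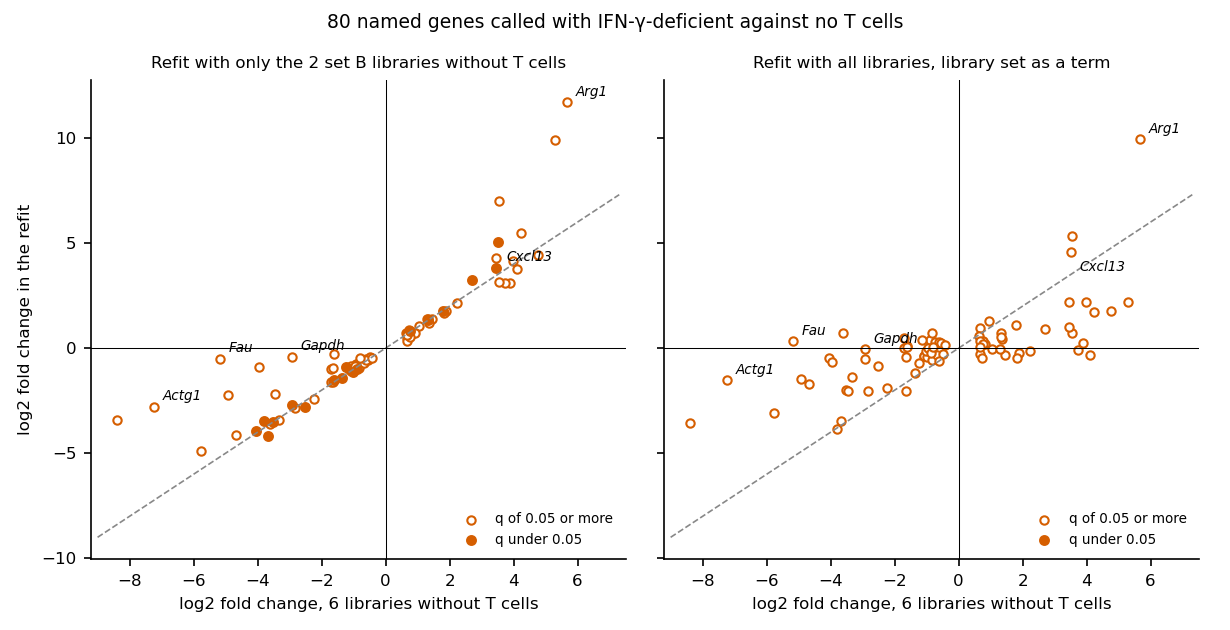
Log2 fold changes of the 80 named and called genes with all 6 libraries without T cells (x axis) against refits (y axis) with the 2 set B libraries (left) and with the set as a term (right); the dashed line marks equal values and filled points passed q under 0.05 in the refit. On the left 17 points are filled, and on the right none is and 23 change sign.

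Set beside the whole comparison with total T cells, the groups of knockout T cells gave these counts of IFN-gamma response genes against the shared controls; differences between the counts were not tested. IL-17A/F-deficient T cells gave 11 of 27 higher (3.69% of all genes higher, 2.28% lower) with a median of 0.85, and T-bet-deficient T cells gave 1 of 27 (4.19% higher, 3.03% lower) with a median of 0.23. IFN-gamma-deficient T cells gave 1 of 27 with a median of -0.16. Total T cells gave 20 of 27 higher, while 11.7% of all genes were higher and 9.39% lower. Of the 58 genes with antigen presentation included, 47 were called lower with IFN-gamma-deficient than with total T cells and none higher. Over all genes 19.5% were lower and 17.4% higher. The library sets differ in that last comparison, since total T cells lie in sets A and B.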

How the data were processed

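RNA of sorted dural macrophages was read as 75-base single ends with an unstranded kit, per the labels' protocols, so reads of a gene and of an antisense partner are not separated. Read counts per gene, as whole numbers, were deposited for 41388 gene identifiers in 27 libraries and were made by the authors with STAR 2.4.0j and featureCounts on GRCm38, per the submitters' processing notes, which also name DESeq2 1.20.0. The table's name speaks of normalized values, but every column holds each of the counts 1 to 20 and column totals differ, so the values were treated as counts. Columns were matched to groups by their names, which carry no replicate numbers of the labels. Library names here (F1, M1) are arbitrary within a group.

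Counts were scaled by TMM and fitted in edgeR 4.0.16 (R 4.3.3) with the quasi-likelihood test, as 1 model of group and sex over all 27 libraries. Tests covered the 12661 genes whose normalized counts averaged 10 or more, with Benjamini-Hochberg adjustment over all of them. Errors are standard errors of the log2 fold change, taken from the F statistic. Summed levels were compared by a two-sided exact permutation test. The fit was tested on simulated data with no difference between library sets, so that test does not bear on the sets. DESeq2 1.42.0 was an alternative. The members and gene lists were chosen with earlier results of these data known. Named genes were 22 core genes, the 12 largest changes in each direction (q under 0.05, at least 5 CPM in the higher group, no overlap, not stromal) and called genes from 30 pathway lists. From each list up to 3 were named, or all of them where 5 or fewer were called. Genes of cell type lists are named with their lists. Nmrk1, Slc16a9, Mki67, Ly6c2, Icam1 and Batf2 were named after their values were seen. Promoters are from RefSeq. The values of 1 core gene are not reported here.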

Additional observations from a re-analysis of the deposited data

Results flagged for a closer look

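Of 127 groups of values examined, 14 had a library farther from its neighbours than Dixon's 95% limit allows, and chance flags about 1 in 20. All were among the 6 libraries without T cells. A pair of values allows no such limit, so the IFN-gamma-deficient libraries could not be flagged. Library F2 was the highest for Cxcl9 at 142 CPM (next 45), Cd274 at 55 (next 31.5), Nos2 at 7.63 (next 0.0599), Tap1 at 275 (next 220.0), Itgax at 97.5 (next 72.1) and Arg1 at 3.9 (next 0.325), and the lowest for Csf1r at 4209.5 (next 4603). Without F2 the fold change of Cxcl9 was -1.09 and that of Tap1 -0.59.

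Library M2 was the highest for Cxcl13 at 16.8 CPM (next 4.42), H2-DMb2 at 24 (next 17.5) and Npc1 at 185 (next 138), and the lowest for Ccna2 at 6.82 (next 15.3). Library M1 was the highest for the neutrophil genes Cd177 at 43.9 (next 6.48) and S100a9 at 469 (next 102). Library F4 was the highest for Gaa at 228 (next 200.3).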

How the results depend on the processing

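No paired analysis was possible because the columns carry no replicate numbers of the labels. Against no T cells, 0 genes were called higher and 0 lower with the library set, the fibroblast score or the ribosomal protein sum as a term, 121 and 95 against set B alone, and 383 lower when only the 8 libraries were fitted. The cause was not tested. The normalizations, DESeq2, the low-count filters and the sex settings gave counts within 1.5 times. With female libraries only, the difference in ribosomal protein RNA was -1.18 (p = 0.133) and in fibroblast RNA 1.33 (p = 0.0667, exact permutation tests over 15 splits, which allow no smaller p than 0.0667). Leaving out 1 library at a time gave -1.51 to -1.26 and 1.37 to 1.56, and with 1 IFN-gamma-deficient library the smallest p is 0.143.

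Leaving out 1 library at a time gave 1 to 813 genes higher and 0 to 1295 lower against no T cells, 1125 to 2328 and 922 to 2457 against total T cells, 0 to 23 and 0 to 276 against IL-17A/F-deficient, and 0 to 25 and 0 to 252 against T-bet-deficient T cells. The low ends against no and total T cells came without IFN-gamma-deficient library F1 and the high ends against both knockouts without F2, with fewer samples. Against IL-17A/F-deficient T cells DESeq2 called 7 higher and 19 lower and the fit with no filter 73 and 145. Against T-bet-deficient T cells the fit with no filter called 42 and 24.

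With the library set as a term these log2 fold changes changed sign: Ccr2 0.082, Col6a5 -0.33, Cacna1c -0.096, Fau 0.34, Ear2 0.73, Irgm1 0.41, H2-DMa 0.70, Psmb9 0.30, H2-T23 0.30, Il4ra -0.29, Cd163 -0.31, Siglec1 -0.038, Klra2 0.37, Cxcl12 -0.12, Fcer1g 0.22, Itgax 0.46, C4b -0.049, Csf1 -0.21, Npc2 0.16, Ftl1 0.052, Lrp1 -0.45, Tlr8 -0.45, Atp6v0c 0.046. With the ribosomal protein sum as a term these did: Fau 1.69, Hnrnpa1 0.57, Psme2 0.12, Ftl1 0.40, Gapdh 0.99. Leaving out 1 library at a time, Arg1 ranged from -6.11 without IFN-gamma-deficient library F1 to 10.36 without F2 of no T cells. The cause was not tested. Chosen after seeing the data, a fit without the set C library of IL-6Ra and IL-21R-deficient T cells called 1111 higher and 871 lower, and scaling on genes that did not differ between sets A and B called 935 and 716.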
